A study of Mus musculus with 29 samples.

Results

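The genes described here encode the plasma membrane and lysosomal amino acid transporters of 5 solute carrier families, SLC1, SLC6, SLC7, SLC36 and SLC38, in the distal colon of mice. They were chosen by name: every probe set annotated to exactly 1 gene whose symbol falls in these families was taken, and each gene was read from its probe set with the highest mean over all 29 arrays. This gave 56 of 22180 named genes, of which 7 belonged to SLC1, 19 to SLC6, 15 to SLC7, 4 to SLC36 and 11 to SLC38. The choice used the gene names and the mean level only, and no difference between groups.

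Whole tissue RNA was hybridised to Affymetrix mouse gene 2.0 ST arrays, 1 array per mouse. The groups were 5 AOM/DSS-treated Cygb-/- mice, 8 AOM/DSS-treated wild type (WT) mice, 8 untreated Cygb-/- mice and 8 untreated WT mice, all female C57BL/6 mice of 18 to 24 weeks according to the labels. AOM is azoxymethane, a colon carcinogen, injected at 7.4 mg/kg, and DSS is dextran sulfate sodium, a salt that injures the colon epithelium, given at 3% in the drinking water. The labels record 1 DSS cycle of 7 days in week 2 and an end point in week 5, whereas the study's methods describe a further DSS cycle and a later end point for the mice used on arrays, so the time since the last DSS cannot be stated here. Cygb encodes cytoglobin, a heme protein. The study detected the protein in fibroblast-like cells of the colon, and found Cygb mRNA in cultured colon crypts as well. The Cygb-/- allele lacks exon 2 in every cell of the animal, was made in embryonic stem cells of another strain and was crossed back to C57BL/6J, and the WT and Cygb-/- mice came from separate lines founded by the same heterozygous pairs. Linked sequence of that strain and line therefore cannot be told apart from the Cygb deletion. The labels call the arrays of a group biological replicates, so the p-values below measure the spread between mice. Cage and cohort were not part of the groups used here. The study's methods list the untreated controls beside another treated cohort than that of the arrays. A difference between cohorts, if any, cannot be told apart from treatment.

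Amino acids cross membranes only through carriers. Most of the large SLC7 exchangers work as a light chain bound to a heavy chain, Slc3a2 or Slc3a1, and swap one amino acid for another, whereas SLC38 and SLC1 members draw amino acids in with sodium, SLC36 members with protons, and SLC6 members with sodium and chloride. SLC6 also holds the carriers of serotonin, dopamine, noradrenaline, GABA, taurine and creatine. In the colon, these proteins feed the epithelium, the immune cells that enter it during inflammation and the nerves of its wall. Several of them are known targets of ATF4, a transcription factor of the amino acid response, and Slc7a11 is also known as a target of NRF2, a factor of the oxidative stress response.

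Values are log2 intensities after robust multi-array averaging (RMA), which puts all arrays on a common scale. A difference of 1 is a change of 2-fold, and levels of different genes cannot be set against each other because each probe set has its own brightness. The array medians lay between 4.76 and 4.88. Cygb read 6.03 to 6.48 in treated Cygb-/- and 8.41 to 9.29 in treated WT colons, and 5.84 to 6.41 in untreated Cygb-/- and 8.57 to 8.98 in untreated WT colons, lower in every Cygb-/- array than in every WT array. AOM/DSS Cygb-/- replicate 3 stood apart: it read 3.82 for Xist, which is transcribed from the inactive X chromosome, against 10.64 to 11.15 in the other 28 arrays, while the 3 Y-linked probe sets were low, at 1.91 to 2.85, in all arrays. The calls and differences of named transporters that rest on treated Cygb-/- colons, and the list counts, are therefore also given without it. Car1, a carbonic anhydrase that marks absorptive colonocytes of the labelled tissue, was present in all groups, with means between 11.34 and 12.59.

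AOM/DSS treatment moved the transporters in both directions. In Cygb-/- colons, 8 of the 56 genes were higher and 14 lower at an adjusted p under 0.05 (limma, Benjamini-Hochberg over all 41345 probe sets, here termed called), and in WT colons 9 were higher and 14 lower. Over all probe sets, 26.1% were called in Cygb-/- colons, 12.6% higher and 13.5% lower, and 26.7% in WT colons, 12.5% higher and 14.3% lower. Among the 22180 named genes read from 1 probe set each, 34.9% were called in Cygb-/- and 34.3% in WT colons, close to the 39.3% and 41.1% of the transporters. The median log2 fold change of the 56 was -0.06 in Cygb-/- and -0.14 in WT colons, against -0.04 in both for all probe sets. The 2 comparisons share no arrays, and 17 genes were called in both, 8 higher and 9 lower, which is 77.3% of the calls in Cygb-/- and 73.9% of the calls in WT colons. None was called in opposite directions, and 47 of the 56 had the same sign in both. These shares were not worked out for all named genes, so the agreement is not shown to be particular to the transporters. The other 28 genes passed in neither comparison, with log2 fold changes between -0.41 and 0.50. Without replicate 3, the Cygb-/- comparison called 8 genes higher and 11 lower, the lost ones being Slc7a13, Slc38a5 and Slc38a11. The differences without it that are not given further on were 0.81 for Slc7a5, 0.63 for Slc7a6, -0.46 for Slc7a4, -0.42 for Slc7a14, -0.35 for Slc7a13, 0.31 for Slc38a2, 0.44 for Slc38a6 and -0.41 for Slc38a9. In SLC6 and SLC1 they were -0.57 for Slc6a17, -0.37 for Slc6a15, -0.25 for Slc6a7, -0.52 for Slc1a5 and -0.46 for Slc1a2.

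**Figure D1:**
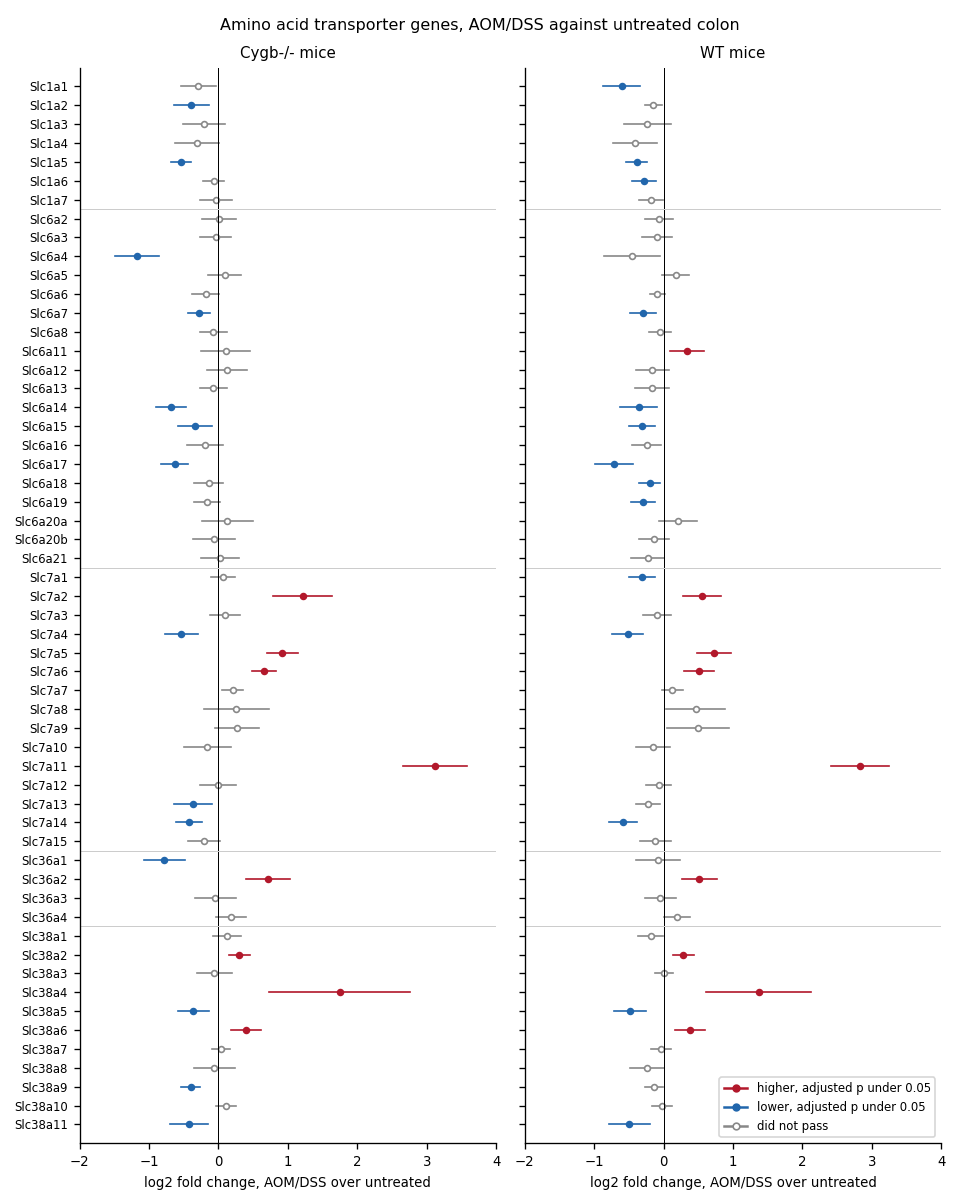
Log2 fold change (x axis) of each of the 56 transporter genes (rows, by family) in AOM/DSS-treated over untreated colons, in Cygb-/- mice on the left and WT mice on the right, with limma's 95% confidence interval as a bar. Red and blue points passed an adjusted p of 0.05, open points did not. Slc7a11, at 3.12 and 2.83, lies farthest from 0 on both sides.

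The largest increase was that of Slc7a11, a heteromeric exchanger of SLC7. Among other light chains, Slc7a5 and Slc7a6 also rose, whereas Slc7a7, Slc7a8, Slc7a9 and Slc7a10 were not called in either genotype. Slc7a11 (probe set 17405082), the light chain of system xc-, which takes up cystine for glutathione synthesis and releases glutamate, read 7.91, 7.00, 8.01, 7.14 and 7.68 in the treated Cygb-/- arrays, against 4.10 to 5.27 with a median of 4.31 in the untreated Cygb-/- arrays. In treated WT arrays it read 6.02 to 8.05 with a median of 7.18, against 4.12 to 4.63 with a median of 4.25 in untreated WT arrays. Every treated array was above every untreated array of its genotype. The log2 fold change was 3.12 ± 0.21 (SE) in Cygb-/- colons (8.70-fold, adjusted p = 2.36e-07) and 2.83 ± 0.20 in WT colons (7.12-fold, adjusted p = 2.03e-08), and 3.00 in Cygb-/- colons without replicate 3. Its second probe set, which read lower, also rose, by 0.89 ± 0.14 in Cygb-/- and 0.72 ± 0.11 in WT colons.

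The RefSeq promoter of Slc7a11, chr3:50443564-50443863 in GRCm38.p6 on the minus strand, is shown because it carries 2 facing copies of the amino acid response element bound by ATF4. It runs from 250 bases before the transcription start to 50 bases after it, and capitals mark matches to TGATGNAA on either strand.
Slc7a11: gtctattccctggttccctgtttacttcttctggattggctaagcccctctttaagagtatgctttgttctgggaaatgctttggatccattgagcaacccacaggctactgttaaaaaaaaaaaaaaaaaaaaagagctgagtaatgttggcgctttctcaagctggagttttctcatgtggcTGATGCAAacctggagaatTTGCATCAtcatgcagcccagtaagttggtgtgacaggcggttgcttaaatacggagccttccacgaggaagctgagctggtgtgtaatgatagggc
The matches start 66 and 47 bases before the transcription start, with 11 bases between them. Of 32851 promoters of the same 300 bases in the table, 1304 (3.97%) held at least 1 match and 23 (0.07%) held 2 or more. Counted by gene, 4.51% of all genes with a promoter held a match. Promoters were found for 40 of the 56 transporter genes, and 3 others held a match, Slc1a4, Slc7a7 and Slc6a21, shown as 30 bases around the match in GRCm38.p6, 5′ to 3′ on the gene's strand. Slc7a7 held 2 matches, starting 141 bases and 1 base before the more upstream of its annotated transcription starts.
Slc1a4 (chr11:20332699-20332728, minus strand): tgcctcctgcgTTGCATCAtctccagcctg
Slc7a7 (chr14:54418067-54418096, minus strand): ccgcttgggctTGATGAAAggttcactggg
Slc7a7 (chr14:54417927-54417956, minus strand): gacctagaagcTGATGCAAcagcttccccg
Slc6a21 (chr7:45282834-45282863, plus strand): agaggtgagaaTTACATCAagtgggcctcc
None of these 3 genes was called: Slc1a4, an alanine, serine and cysteine exchanger, changed by -0.31 and -0.41, Slc7a7, a light chain for cationic amino acids, by 0.20 and 0.12, and Slc6a21, a member of the SLC6 family, by 0.02 and -0.23 (log2, Cygb-/- then WT colons). These 3 are named for their promoters, after their values were seen. The antioxidant response element bound by NRF2, TGACNNNGC, was found on either strand in 12.4% of all promoters, or 14.0% of all genes. It was found in 7 of the 40 transporter genes with a promoter, among them Slc7a6, Slc38a2 and Slc36a1 but not Slc7a11. A match is a stretch of letters and not a measured binding site.

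Slc7a5, the light chain of LAT1, which brings leucine and other large neutral amino acids into dividing cells and activated lymphocytes, read 8.00, 8.08, 8.64, 8.06 and 8.21 in treated Cygb-/- arrays, against 7.16 to 7.44 (median 7.22) in untreated Cygb-/- arrays. In treated WT arrays it read 7.39 to 8.36 (median 7.84), against 6.96 to 7.36 (median 7.21) in untreated WT arrays. The groups did not overlap in either genotype, and the increase was 0.92 ± 0.10 (adjusted p = 1.55e-05) in Cygb-/- and 0.73 ± 0.12 (adjusted p = 0.000195) in WT colons. Slc7a6, the light chain of the exchanger y+LAT2 for cationic and neutral amino acids, read 7.16, 7.53, 7.47, 7.26 and 7.49 in treated against 6.56 to 6.88 (median 6.72) in untreated Cygb-/- arrays, without overlap. In WT colons it read 6.84 to 7.61 (median 7.16) after treatment, against 6.53 to 6.87 (median 6.69), with 7 of 8 treated arrays above all untreated ones. The increase was 0.66 ± 0.08 (adjusted p = 2.88e-05) in Cygb-/- and 0.51 ± 0.10 (adjusted p = 0.00109) in WT colons.

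SLC7 also holds cationic amino acid carriers, which bring in arginine and lysine without a heavy chain, and of these Slc7a2 rose in both genotypes. Slc7a2 read 6.93, 5.63, 6.26, 5.56 and 5.52 in treated Cygb-/- arrays, against 4.63 to 5.02 (median 4.74) in untreated Cygb-/- arrays, without overlap, and replicates 1 and 3 were the highest. In treated WT arrays it read 5.01 to 5.75 (median 5.39), against 4.12 to 5.21 (median 4.87) in untreated WT arrays, with 7 of 8 treated arrays above all untreated ones. The increase was 1.21 ± 0.20 (2.32-fold, adjusted p = 0.000361; 1.14 without replicate 3) in Cygb-/- and 0.55 ± 0.13 (1.47-fold, adjusted p = 0.00438) in WT colons. Slc7a1, the widely expressed carrier of the same substrates, fell in WT colons (-0.31 ± 0.09, adjusted p = 0.013) and changed by 0.06 ± 0.08 (adjusted p = 0.609) in Cygb-/- colons. The third such carrier, Slc7a3, named after its values were seen, was not called in either (adjusted p = 0.537 in Cygb-/- and 0.51 in WT colons).

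SLC7 also held members that fell. Slc7a4, a relative of the cationic carriers with no known substrate, read 5.00, 5.15, 4.65, 4.87 and 5.16 in treated against 5.18 to 5.74 (median 5.52) in untreated Cygb-/- arrays, and 4.47 to 5.29 (median 4.83) in treated against 5.10 to 5.58 (median 5.43) in untreated WT arrays. The groups were separate in Cygb-/- colons only, and the change was -0.54 ± 0.11 (adjusted p = 0.00218) in Cygb-/- and -0.52 ± 0.11 (adjusted p = 0.00169) in WT colons. Slc7a14, a lysosomal member known mainly from neurons, read 5.32, 5.31, 5.24, 5.18 and 5.23 in treated against 5.35 to 5.91 (median 5.70) in untreated Cygb-/- arrays, and 4.99 to 5.60 (median 5.25) in treated against 5.53 to 6.16 (median 5.84) in untreated WT arrays. It fell in both genotypes, by 0.43 ± 0.09 (adjusted p = 0.00191) in Cygb-/- and 0.58 ± 0.10 (adjusted p = 0.00019) in WT colons. Slc7a13, at an adjusted p of 0.0478 (-0.37 ± 0.13), was called in Cygb-/- colons, and leaving out 1 array removed the call in 9 of 13 fits. Its mean over all arrays was 2.45, below the lower quartile of every array (3.26 to 3.37). That level lies in the range of the Y-linked probe sets (1.91 to 2.85), so its decrease is not shown to be that of an expressed gene. The SLC7 genes not called, 8 in each genotype, had log2 fold changes of -0.21 to 0.27 in Cygb-/- and -0.23 to 0.50 in WT colons.

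**Figure D2:**
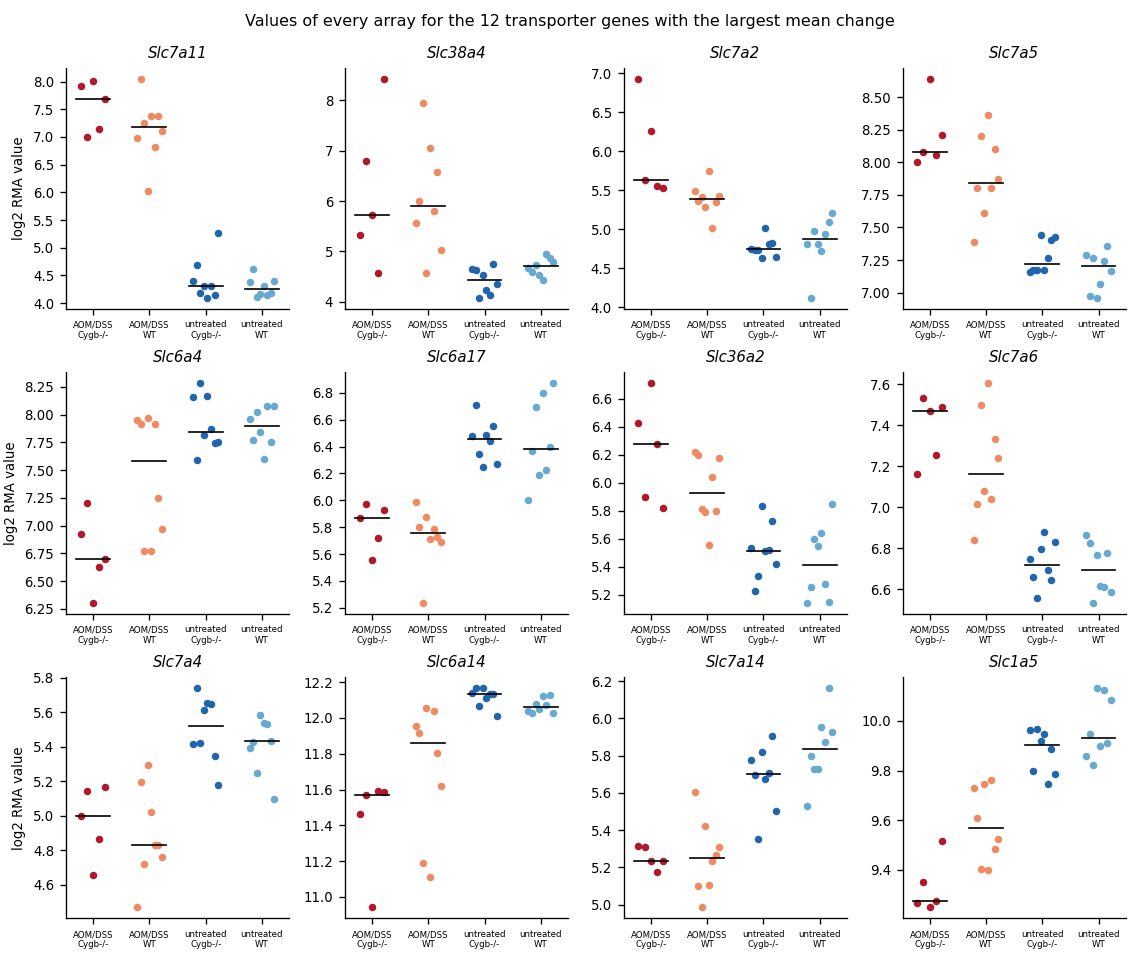
Log2 RMA value (y axis) of every array for the 12 called transporter genes with the largest mean absolute log2 fold change, in the 4 groups (x axis: AOM/DSS Cygb-/-, AOM/DSS WT, untreated Cygb-/-, untreated WT). Each point is 1 mouse and the line is the group median. Slc7a11 separates treated from untreated arrays, whereas Slc38a4 spreads from 4.57 to 8.43 among the treated Cygb-/- arrays.

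Of the sodium-coupled SLC38 family, 3 members rose in both genotypes. Slc38a4, a carrier of neutral and cationic amino acids known from liver and placenta, read 5.34, 6.79, 5.71, 4.57 and 8.43 in treated Cygb-/- arrays, against 4.08 to 4.74 (median 4.44) in untreated Cygb-/- arrays. In treated WT arrays it read 4.57 to 7.95 (median 5.90), against 4.43 to 4.94 (median 4.71) in untreated WT arrays. All but 1 treated array of each genotype lay above the untreated ones, and the treated arrays spread far more widely than the untreated ones. The increase was 1.74 ± 0.47 (adjusted p = 0.0132; 1.86 without replicate 3) in Cygb-/- and 1.37 ± 0.36 (adjusted p = 0.00853) in WT colons, and leaving out single arrays moved it between 1.18 and 2.14 in Cygb-/- colons. Slc38a2, the glutamine and alanine carrier SNAT2, rose by 0.30 ± 0.07 (adjusted p = 0.00542) and 0.28 ± 0.07 (adjusted p = 0.00567) in Cygb-/- and WT colons. Slc38a6 rose by 0.39 ± 0.10 (adjusted p = 0.0103) and 0.38 ± 0.10 (adjusted p = 0.0105). Slc38a1, Slc38a2 and Slc38a4 lie next to each other on chromosome 15, and Slc38a1, a glutamine carrier named here as their neighbour, changed by 0.12 and -0.18 and was not called in either genotype.

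The other SLC38 calls were decreases. Slc38a5, a glutamine carrier that also works outward, fell by 0.36 ± 0.10 (adjusted p = 0.019) in Cygb-/- and 0.48 ± 0.11 (adjusted p = 0.00343) in WT colons. Slc38a11 fell by 0.43 ± 0.13 (adjusted p = 0.0248) and 0.49 ± 0.14 (adjusted p = 0.015). Slc38a9, the lysosomal arginine sensor of the mTORC1 pathway, fell in Cygb-/- colons by 0.40 ± 0.06 (adjusted p = 0.00029). In WT colons it changed by -0.14 ± 0.06 (adjusted p = 0.119). It read 6.91 to 7.02 (mean 6.98) in treated and 7.23 to 7.55 (mean 7.38) in untreated Cygb-/- arrays. In WT arrays it read 6.93 to 7.25 (mean 7.03) after treatment, against 7.01 to 7.38 (mean 7.17). The genotypes thus lay closer together in treated than in untreated colons, and neither difference was called. The calls of Slc38a5 and Slc38a11 in Cygb-/- colons were lost when replicate 3 was left out (-0.32, adjusted p = 0.0557, and -0.33, adjusted p = 0.0749).

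The proton-coupled carriers Slc36a1 and Slc36a2, of small amino acids such as glycine and proline, are neighbours on chromosome 11 with Slc36a3. Slc36a2 read 6.42, 5.90, 6.71, 6.27 and 5.82 in treated Cygb-/- arrays, against 5.23 to 5.83 (median 5.51) in untreated Cygb-/- arrays, and 5.55 to 6.22 (median 5.93) in treated against 5.14 to 5.85 (median 5.41) in untreated WT arrays. The groups overlapped in both genotypes, and Slc36a2 rose by 0.71 ± 0.15 (adjusted p = 0.00198; 0.59 without replicate 3) in Cygb-/- and 0.52 ± 0.12 (adjusted p = 0.00397) in WT colons. Slc36a1, which also sits on lysosomes, read 8.96, 9.29, 8.40, 8.75 and 8.65 in treated against 9.38 to 9.81 (median 9.60) in untreated Cygb-/- arrays, a decrease of 0.78 ± 0.13 (adjusted p = 0.000568; -0.67 without replicate 3). In WT colons it read 8.63 to 9.81 (median 9.44) after treatment, against 9.24 to 9.72 (median 9.38), and changed by -0.08 ± 0.15 (adjusted p = 0.727). The values of Slc36a1 in every array, and those of Slc38a9 above, are given after they were seen. Slc36a4 is read by 2 probe sets that disagreed: the brighter one changed by 0.18 ± 0.10 in Cygb-/- and 0.19 ± 0.09 in WT colons and was not called, and the dimmer one fell by 0.63 ± 0.09 (adjusted p = 0.000127) and 0.40 ± 0.08 (adjusted p = 0.000918), so no direction can be given for this gene.

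Among the SLC6 carriers, the called members fell, with Slc6a11 in WT colons as the exception. Slc6a4, the serotonin carrier that ends serotonin signalling and in the gut is found in the epithelium and in nerves, read 6.92, 7.20, 6.31, 6.62 and 6.70 in treated Cygb-/- arrays, against 7.59 to 8.28 (median 7.84) in untreated Cygb-/- arrays, without overlap. In treated WT arrays it read 6.77 to 7.97 (median 7.58), against 7.60 to 8.08 (median 7.90) in untreated WT arrays, and 4 of the 8 treated arrays lay below all untreated ones. The change was -1.17 ± 0.15 (2.25-fold lower, adjusted p = 4.37e-05; -1.06 without replicate 3) in Cygb-/- and -0.45 ± 0.19 (adjusted p = 0.0892) in WT colons. Slc6a14, the apical carrier ATB0,+ for neutral and cationic amino acids in the distal gut and airway, read 11.47, 11.57, 10.94, 11.59 and 11.59 in treated against 12.01 to 12.17 (median 12.14) in untreated Cygb-/- arrays, without overlap. In WT colons it read 11.11 to 12.06 (median 11.86) after treatment, against 12.03 to 12.13 (median 12.06), and 6 of 8 treated arrays lay below all untreated ones. It fell by 0.69 ± 0.10 (adjusted p = 0.000121; -0.56 without replicate 3) in Cygb-/- and 0.36 ± 0.13 (adjusted p = 0.0448) in WT colons, and the WT call was lost in 12 of 16 fits that left out 1 array.

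Further SLC6 members that fell in both genotypes were Slc6a17, Slc6a15 and Slc6a7, whereas the dopamine, noradrenaline and neuronal glycine carriers Slc6a3, Slc6a2 and Slc6a5, named here after their values were seen, were not called in either. Slc6a17, a neutral amino acid carrier of synaptic vesicles, read 5.87, 5.97, 5.55, 5.72 and 5.93 in treated against 6.25 to 6.71 (median 6.46) in untreated Cygb-/- arrays, and 5.24 to 5.98 (median 5.76) in treated against 6.00 to 6.87 (median 6.38) in untreated WT arrays. The groups did not overlap in either genotype, and the change was -0.63 ± 0.09 (adjusted p = 0.00014) in Cygb-/- and -0.72 ± 0.13 (adjusted p = 0.000445) in WT colons. Slc6a15, a branched-chain amino acid and proline carrier of the brain, fell by 0.33 ± 0.11 (adjusted p = 0.0449, lost in 9 of 13 fits without 1 array) and 0.31 ± 0.09 (adjusted p = 0.0134). Slc6a7, the brain proline carrier, fell by 0.28 ± 0.07 (adjusted p = 0.0115) and 0.30 ± 0.09 (adjusted p = 0.0198). In WT colons only, Slc6a19 and Slc6a18, the neutral amino acid carriers of the small intestine and kidney that lie side by side on chromosome 13, passed as lower (-0.29 ± 0.08, adjusted p = 0.0128, and -0.20 ± 0.07, adjusted p = 0.0442), and the GABA carrier Slc6a11 as higher (0.34 ± 0.12, adjusted p = 0.0424). The calls of Slc6a18 and Slc6a11 were each lost in 12 of 16 fits without 1 array, and the difference between the genotypes was not called for any of these 3 genes. The 14 SLC6 genes not called in Cygb-/- colons lay between -0.19 and 0.13, and the 12 not called in WT colons between -0.45 and 0.21.

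All 7 SLC1 genes had negative log2 fold changes in both genotypes, with medians of -0.29 in Cygb-/- and -0.28 in WT colons, and none was called higher. Slc1a5, the glutamine exchanger ASCT2, read 9.27, 9.35, 9.25, 9.28 and 9.52 in treated against 9.75 to 9.97 (median 9.90) in untreated Cygb-/- arrays, and 9.40 to 9.76 (median 9.57) in treated against 9.82 to 10.13 (median 9.93) in untreated WT arrays. The groups did not overlap in either genotype, and it fell by 0.54 ± 0.07 (adjusted p = 2.88e-05) in Cygb-/- and 0.39 ± 0.07 (adjusted p = 0.000693) in WT colons, while its dimmer second probe set changed by -0.30 ± 0.12 (adjusted p = 0.0783) and -0.12 ± 0.09 (adjusted p = 0.346). Slc1a1, the glutamate and cysteine carrier of epithelia and neurons, fell in WT colons by 0.60 ± 0.13 (adjusted p = 0.00185) and changed by -0.29 ± 0.12 (adjusted p = 0.0849) in Cygb-/- colons. Slc1a2, the main glutamate carrier of astrocytes, passed in Cygb-/- colons alone (-0.39 ± 0.12, adjusted p = 0.0234), and Slc1a6, a glutamate carrier of Purkinje cells, in WT colons alone (-0.28 ± 0.08, adjusted p = 0.016). The Slc1a2 call was lost when replicate 2 or 4 of the treated Cygb-/- mice was left out.

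Counted over all 56 genes, treated and untreated arrays did not overlap for 13 genes in Cygb-/- and 5 in WT colons, where 15.0% and 8.50% of all probe sets did not overlap. Of the 12 called genes with the largest changes, 10 were separate in Cygb-/- and 4 in WT colons. These 12 were picked by their change in the same comparisons, which favours separation. The shares of all probe sets are therefore no background for them. Many members gave dim signals: the mean of 21 of the 56 genes lay below 4.81, the median of all probe set means, 10 of them in SLC6. Of the 28 called genes, 7 were among these. They were Slc7a13 (mean 2.45), Slc38a5 (3.77), Slc6a15 (4.15), Slc1a2 (4.24), Slc6a18 (4.24), Slc6a19 (4.40) and Slc1a6 (4.78).

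The same arrays lay at the extremes of several genes. In treated WT colons, replicates 3 and 5 had the lowest values of Slc6a14 (11.19 and 11.11), Slc1a1 (7.20 and 7.36), Slc36a1 (8.87 and 8.63), Slc1a5 (9.41 and 9.40) and Slc6a4 (6.77 in both), and the highest of Slc38a4 (7.95 and 7.05), Slc7a5 (8.20 and 8.36) and Slc7a6 (7.50 and 7.61). In treated Cygb-/- colons, replicate 3 had the lowest Slc6a14 (10.94), Slc36a1 (8.40) and Slc6a4 (6.31), the lowest Slc1a5 (9.25) and the highest Slc7a5 (8.64), whereas Slc38a4 was highest in replicate 5 (8.43, against 5.71 in replicate 3), Slc7a6 was highest in replicate 2 (7.53, against 7.47) and Slc1a1 was lowest in replicate 5 (7.76, against 7.82). These 3 arrays also had the lowest absorptive colonocyte marker scores, -1.01 and -1.02 in WT replicates 3 and 5 and -1.48 in Cygb-/- replicate 3, where the score is the mean log2 level of 10 marker genes centred on all arrays. The colonocyte score ranged from -1.48 to -0.62 in treated Cygb-/- and -1.02 to -0.19 in treated WT colons, against 0.49 to 0.67 in untreated Cygb-/- and 0.46 to 0.59 in untreated WT colons, and 8 and 7 of the 10 markers fell in Cygb-/- and WT colons. Enteroendocrine scores ranged from -0.78 to -0.03 and -1.09 to -0.07 in treated Cygb-/- and WT colons, against 0.29 to 0.66 and 0.25 to 0.46 in untreated Cygb-/- and WT colons. Neutrophil scores ranged from 1.05 to 3.20 and 0.59 to 2.26 in treated Cygb-/- and WT colons, against -1.40 to -1.15 and -1.49 to -1.14 in untreated Cygb-/- and WT colons, and all 9 markers rose in both genotypes. Markers of macrophages and monocytes (8 of 8), B and plasma cells (6 of 6), T cells (5 of 6) and fibroblasts (6 of 7) also rose in both genotypes. Of 6 endothelial markers, 6 rose in Cygb-/- and 4 in WT colons. Of 6 enteric neuron markers, 4 fell and 1 rose in Cygb-/- colons (Ret, a receptor of neuron growth factors, by 0.87 ± 0.12, adjusted p = 8.88e-05). In WT colons 5 of them fell, and all 7 smooth muscle markers fell in both genotypes. In Cygb-/- colons without replicate 3, T cell and fibroblast markers had 3 and 5 higher, and enteric neuron markers 3 lower. The other marker counts given here were unchanged. In whole tissue, fewer cells of a type and less RNA per cell cannot be told apart, and the part of these cell types in the transporter changes was not tested.

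**Figure D3:**
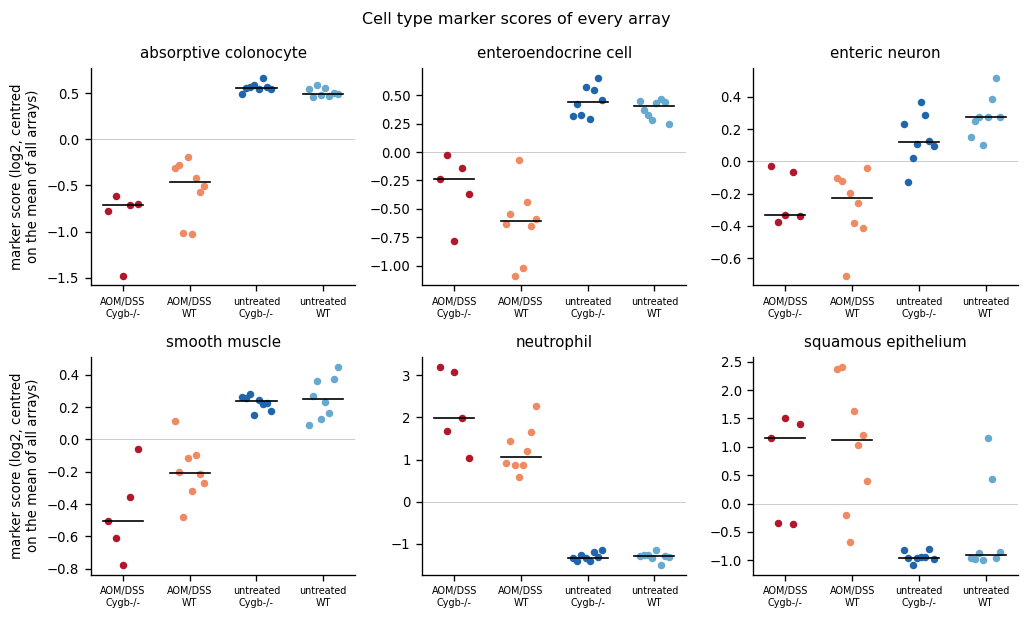
Marker score (y axis, mean log2 level of a list of marker genes, each centred on its mean over all arrays) for 6 cell types in every array of the 4 groups (x axis), with the group median as a line. Treated arrays lie below untreated ones for colonocytes and enteroendocrine cells and above them for neutrophils, and squamous scores are over 1 in 3 treated Cygb-/-, 5 treated WT and 1 untreated WT array.

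The squamous epithelium score was uneven within the treated groups, from -0.35 to 1.51 in Cygb-/- and -0.68 to 2.41 in WT colons. With the score as a covariate, 5 of the 22 calls in Cygb-/- and 15 of the 23 in WT colons were kept. In Cygb-/- colons every untreated array scored lower than every treated one, at most -0.80. The covariate and the treatment therefore cannot be fully told apart there. In another fit, chosen after seeing the data, the arrays with a score over 1 were left out. That removed 3 of the 5 treated Cygb-/- arrays, 5 of the 8 treated WT arrays and 1 untreated WT array. On the few treated arrays that remained, 8 transporter genes were called higher and 8 lower in Cygb-/- colons. In WT colons, 3 were called higher and 4 lower. Slc7a11 (2.64, adjusted p = 6.62e-05, and 2.51, adjusted p = 9.2e-05), Slc7a5 (0.79, adjusted p = 0.000406, and 0.72, adjusted p = 0.00581), Slc7a6 (0.67, adjusted p = 0.0013, and 0.56, adjusted p = 0.00768) and Slc1a5 (-0.56, adjusted p = 0.00112, and -0.42, adjusted p = 0.0235) kept their calls in Cygb-/- and WT colons. Slc38a4 lost them (1.25, adjusted p = 0.0658, and 1.12, adjusted p = 0.23).

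The comparisons of genotype ask whether loss of cytoglobin changed the transporters. None of the 56 genes was called between Cygb-/- and WT mice, either in treated colons (lowest adjusted p = 0.352) or in untreated colons (lowest adjusted p = 0.429), and none in the interaction of genotype and treatment (lowest adjusted p = 0.263). Of all probe sets, 0.167%, 0.0218% and 0.148% were called in these 3 comparisons. Unadjusted p was under 0.05 for 5, 6 and 6 of the 56 genes, or 8.93%, 10.7% and 10.7%. Among all probe sets it was under 0.05 for 9.69%, 6.98% and 8.08%. The methods' t-test, rebuilt here and run on the 2 genotype comparisons, called none either, with Slc6a4 in treated colons near the threshold (adjusted p = 0.0577), and the study's own calculation may differ from it in detail. In treated colons, 3 genes differed by 0.5 or more on the log2 scale: Slc6a4 was at -0.69 ± 0.25 in Cygb-/- relative to WT colons (adjusted p = 0.39), Slc7a2 at 0.59 ± 0.21 (adjusted p = 0.372) and Slc36a1 at -0.54 ± 0.20 (adjusted p = 0.4). The adjusted p of Slc6a4 ranged from 0.0577 to 1 over the alternatives, and that of Slc7a2 from 0.0518 to 1. Slc7a1 read 7.15 to 7.61 (median 7.26) in treated Cygb-/- colons, against 6.63 to 7.25 (median 7.00) in treated WT colons, a difference of 0.33 (adjusted p = 0.359), with an interaction of 0.38 ± 0.12 (adjusted p = 0.296). Without treated Cygb-/- replicate 3, the treated difference was -0.58 for Slc6a4, 0.53 for Slc7a2, -0.44 for Slc36a1 and 0.26 for Slc7a1, and none was called. The same 3 genes had the largest interaction estimates, -0.72 ± 0.26 for Slc6a4 (adjusted p = 0.395), 0.66 ± 0.24 for Slc7a2 (adjusted p = 0.391) and -0.70 ± 0.21 for Slc36a1 (adjusted p = 0.263), the last with a range of 0.0686 to 0.811 over the alternatives. Without that array the interaction was -0.61 for Slc6a4, 0.59 for Slc7a2, -0.59 for Slc36a1 and 0.31 for Slc7a1. A call in 1 genotype alone, as for Slc6a4, Slc36a1 and Slc38a9, is therefore not shown by the tests run here to differ from the other genotype. For Slc6a4 in treated colons, the study's own list differs from this. Slc6a4 and Slc36a1 lie on chromosome 11, which also carries Cygb, and Slc7a2 lies on chromosome 8. The part of linked sequence in these differences was not tested. In untreated colons, the differences lay between -0.27 and 0.21.

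**Figure D4:**
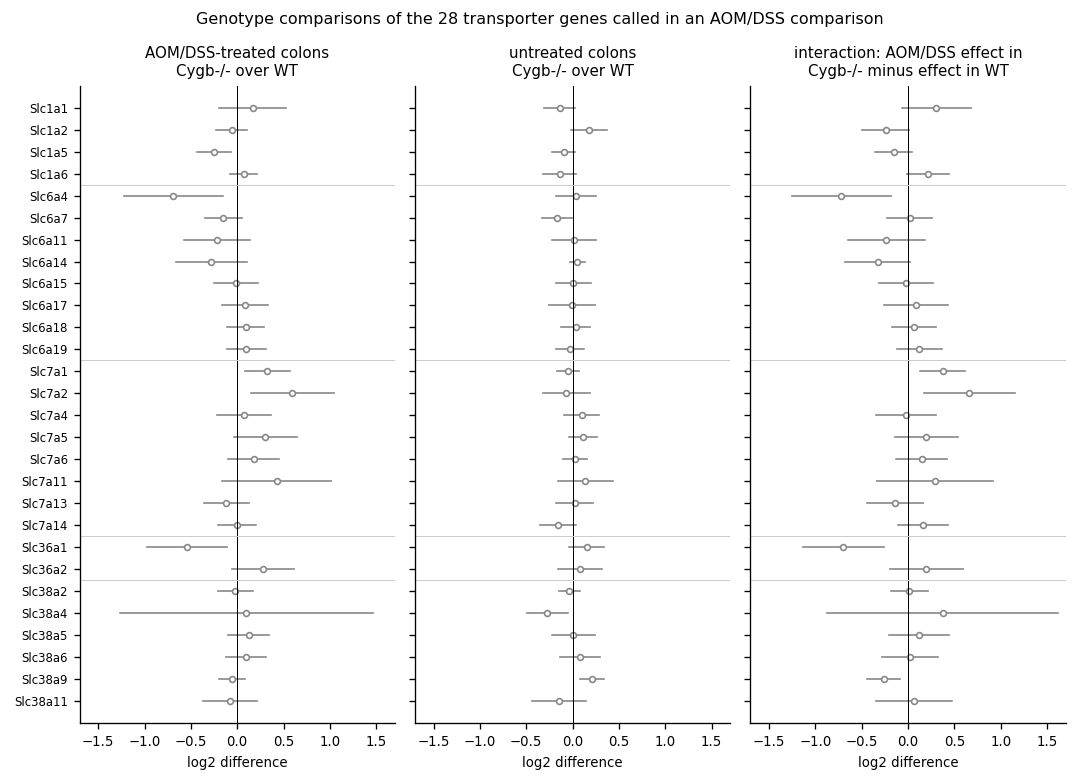
Log2 difference (x axis) with limma's 95% confidence interval for the 28 transporter genes called in an AOM/DSS comparison (rows, by family). The panels show Cygb-/- over WT in treated colons, Cygb-/- over WT in untreated colons, and the interaction (the AOM/DSS effect in Cygb-/- minus that in WT mice). All points are open because none passed, and the untreated differences of all 56 genes lie between -0.27 and 0.21.

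The genes around the transporters moved as follows. Of all probe sets, 26.1% were called in Cygb-/- and 26.7% in WT colons, and of named genes 34.9% and 34.3%. The shares of the lists, in Cygb-/- then WT colons, were 40% and 40% for partners and 76% and 48% for ATF4. They were 71.4% in both for NRF2, 66.7% and 83.3% for serotonin, 53.3% and 46.7% for mTORC1 and 50% and 75% for amino acid breakdown. Of 10 partner proteins and further amino acid or peptide carriers, 2 rose and 2 fell in each genotype, near the share of named genes. Slc3a1, the heavy chain that pairs with Slc7a9 to take up cystine and cationic amino acids, read 5.36, 5.78, 4.77, 5.60 and 5.34 in treated Cygb-/- arrays, against 8.01 to 8.77 (median 8.40) in untreated Cygb-/- arrays, and 4.94 to 6.58 (median 5.55) in treated against 7.31 to 8.42 (median 8.01) in untreated WT arrays. It fell by 2.99 ± 0.17 (adjusted p = 3.99e-08) in Cygb-/- and 2.27 ± 0.22 (adjusted p = 6.18e-07) in WT colons, without overlap, whereas its light chain Slc7a9, named here for that pairing, changed by 0.27 ± 0.15 (adjusted p = 0.214) and 0.50 ± 0.21 (adjusted p = 0.0946). Slc3a2, the heavy chain of Slc7a5, Slc7a6 and Slc7a11, rose by 0.35 ± 0.07 (adjusted p = 0.00138) in Cygb-/- and 0.19 ± 0.07 (adjusted p = 0.047) in WT colons. Slc43a2, a uniporter of large neutral amino acids, rose by 0.56 ± 0.09 and 0.59 ± 0.10. Slc15a1, the peptide carrier PEPT1 of the intestinal brush border, fell by 1.14 ± 0.25 (adjusted p = 0.00372) and 0.39 ± 0.14 (adjusted p = 0.044).

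Of 25 ATF4 target and amino acid response genes, 14 rose and 5 fell in Cygb-/- colons, with a median log2 fold change of 0.33, and 9 rose and 3 fell in WT colons, with a median of 0.16. The serine synthesis enzyme Psat1 rose by 1.33 ± 0.12 and 1.21 ± 0.12, and the mitochondrial serine hydroxymethyltransferase Shmt2 by 1.07 ± 0.11 and 0.71 ± 0.08. Nupr1, a stress-induced chromatin protein, fell by 1.11 ± 0.08 and 0.91 ± 0.09, and Cth, which makes cysteine from cystathionine, by 1.47 ± 0.12 and 0.91 ± 0.14, so the list did not move one way. Promoters were found for 21 of the 25 genes and 6 held TGATGNAA, among them Nupr1. Of 7 NRF2 target and glutathione synthesis genes, 2 rose and 3 fell in both genotypes: the heme-degrading enzyme Hmox1 rose by 1.68 ± 0.21 and 1.44 ± 0.13 and the thioredoxin reductase Txnrd1 by 0.64 ± 0.05 and 0.37 ± 0.09, and Gclc, the catalytic subunit of the first enzyme of glutathione synthesis, fell by 0.39 ± 0.08 and 0.38 ± 0.07 and the quinone reductase Nqo1 by 0.75 ± 0.13 and 0.48 ± 0.13.

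Around the serotonin carrier Slc6a4, 4 of 6 genes of serotonin synthesis, storage and breakdown fell in Cygb-/- and 5 of 6 in WT colons, and none rose. Tph1, which makes serotonin in enterochromaffin cells, fell by 0.98 ± 0.16 (adjusted p = 0.000343) in Cygb-/- colons and fell by 1.48 ± 0.15 (adjusted p = 1.41e-06) in WT colons. The monoamine oxidases Maoa and Maob, which break serotonin down, fell by 1.28 ± 0.11 and 1.21 ± 0.19 in Cygb-/- and by 0.78 ± 0.11 and 0.76 ± 0.19 in WT colons, and the vesicle carrier Slc18a2 fell by 0.40 ± 0.10 and 0.36 ± 0.09. Of 15 amino acid sensing genes of the mTORC1 pathway, 2 rose and 6 fell in Cygb-/- and 1 rose and 6 fell in WT colons; Rptor, the scaffold of the complex, fell by 0.31 ± 0.06 and 0.29 ± 0.06, and the small GTPase Rragd by 0.47 ± 0.10 and 0.26 ± 0.09. Of 8 genes of glutamine, arginine and tryptophan breakdown, 4 rose in both genotypes and 2 fell in WT colons. The arginine-consuming enzymes Nos2 and Arg1 rose by 3.84 ± 0.39 and 3.00 ± 0.36 in Cygb-/- and by 3.71 ± 0.28 and 3.21 ± 0.45 in WT colons, and the tryptophan-degrading enzymes Ido1 and Kynu by 2.61 ± 0.46 and 0.94 ± 0.17 in Cygb-/- and by 2.54 ± 0.33 and 1.19 ± 0.13 in WT colons. No gene of these 6 lists was called in a genotype comparison or in the interaction. Without treated Cygb-/- replicate 3, the counts of 5 of the lists in Cygb-/- colons were the same and the ATF4 list had 13 higher and 4 lower, and Slc3a1 was at -2.84 (adjusted p = 6.41e-08).

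**Figure D5:**
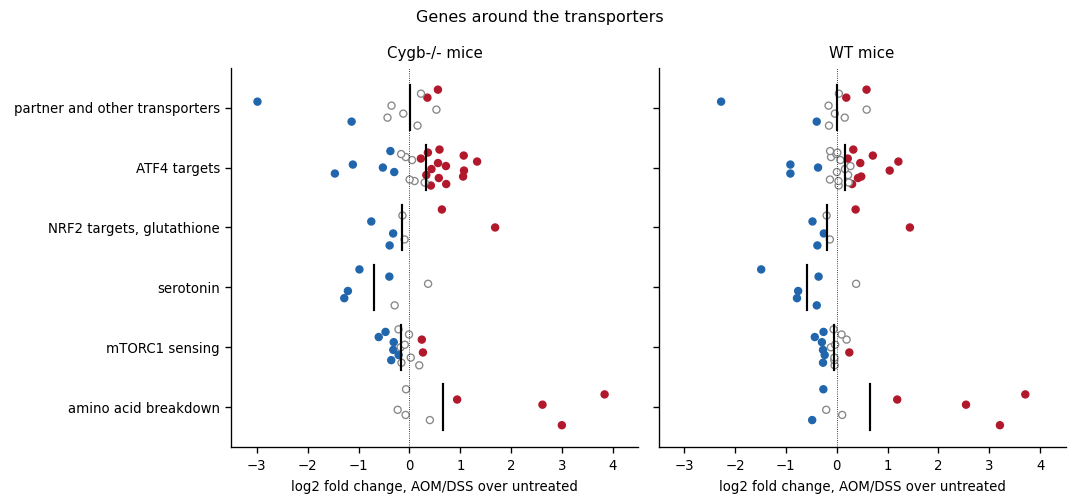
Log2 fold change (x axis) in AOM/DSS-treated over untreated colons for the genes of 6 lists (rows), in Cygb-/- mice on the left and WT mice on the right. Each point is 1 gene, red and blue points passed an adjusted p of 0.05, open points did not, and the black line is the list median. Slc3a1, at -2.99 and -2.27, is the leftmost point, and Nos2, at 3.84 and 3.71, the rightmost.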

How the data were processed

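Distal colon RNA of 29 mice was hybridised to Affymetrix mouse gene 2.0 ST arrays. The authors normalised the arrays by RMA and deposited 1 series table of log2 values for 41345 probe sets, in which every column belonged to a sample. The array annotation build is not given in the sources used here. Probe sets were named through GEO's platform annotation, and those with several genes were left out, which removed 1 transporter probe set. The transporter members, gene lists and cell type markers were chosen with earlier results of these data known.

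Groups came from the labels. Each comparison was fitted on its 2 groups with limma's lmFit and eBayes (limma 3.58.1, R 4.3.3), two-sided, and p-values were adjusted by Benjamini-Hochberg across the whole table, with 0.05 as the limit; the interaction was fitted on all 4 groups. The fit was tested on simulated data. Genes called in any comparison are named with their statistics, and the 12 with the largest mean absolute log2 fold change over both AOM/DSS comparisons with their array values; list genes are named by the smallest p. Promoters came from RefSeq (GRCm38.p6), and proteins were not used here. Alternatives were other normalisations, filters, variance models, a replicate block, the squamous score as covariate, other probe set rules, each array left out, and the methods' t-test, which tests only probe sets changed by at least 1.5-fold. The number of arrays limits the precision.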

Additional observations from a re-analysis of the deposited data

Results flagged for a closer look

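Single arrays stood apart from the rest of their group for 6 of the 28 called transporter genes. Of 112 groups of arrays examined, 7 had a highest or lowest array whose gap to the nearest other array exceeded the 95% critical value of Dixon's test, and chance alone gives about 1 in 20. In AOM/DSS Cygb-/- replicate 3, the array with low Xist, Slc6a14 read 10.94, against 11.47 to 11.59 in the other 4 arrays, and Slc1a2 read 4.35, against 3.94 to 4.03. In AOM/DSS WT replicate 3, Slc6a17 read 5.24, against 5.69 to 5.98, and Slc6a7 read 4.69, against 5.01 to 5.23. In untreated Cygb-/- replicate 2, Slc6a15 read 3.87, against 4.22 to 4.48, and in untreated Cygb-/- replicate 1, Slc1a2 read 3.93, against 4.41 to 4.68. In untreated WT replicate 2, Slc7a2 read 4.12, against 4.72 to 5.21.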

How the results depend on the processing

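The increase of Slc7a11, Slc7a5 and Slc7a6 and the decrease of Slc1a5 kept their direction under every alternative run. Leaving out 1 array at a time gave 8 to 9 genes called higher and 11 to 14 called lower in Cygb-/- colons, and 8 to 10 higher and 12 to 15 lower in WT colons; 5 of the 22 calls in Cygb-/- and 3 of the 23 in WT colons were lost in at least 1 of these fits. The count of 0 in the genotype comparisons and the interaction held under all alternatives run. In Cygb-/- colons, 8 genes were called higher and 14 lower. The squamous score as covariate gave 5 higher and 1 lower: 5 of the 22 calls were kept, 17 lost and 1 gained. The methods' t-test left 6 higher and 4 lower. Leaving out arrays with a squamous score over 1, added after seeing the data, gave 8 higher and 8 lower. It removed 3 of the 5 treated Cygb-/- arrays. In that fit 15 calls were kept, 7 lost and 1 gained. In WT colons, 9 genes were called higher and 14 lower. The methods' t-test left 3 higher and 2 lower, since it tests only changes of at least 1.5-fold. The squamous covariate gave 6 higher and 10 lower, with 15 of the 23 calls kept, 8 lost and 1 gained. Leaving out the arrays with a squamous score over 1 left 3 higher and 4 lower. It removed 5 of the 8 treated WT arrays and 1 untreated WT array. The mean of both probe sets turned Slc36a4 from 0.18 to -0.23 (adjusted p = 0.044) in Cygb-/- colons. The replicate numbers share only a number: the correlation of deviations averaged -0.02 and -0.01 over the pairs of the 2 AOM/DSS comparisons. It averaged 0.08 in the treated genotype comparison, where 3 of 5 pairs were over 0.1 and the range was -0.14 to 0.22. In the untreated one it averaged -0.05. A replicate block gave 6 genes higher and 9 lower in Cygb-/- colons, and 8 higher and 13 lower in WT colons. It changed no call between genotypes. Other causes were not tested.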
